A study of Mus musculus with 193 samples.

Results

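The cells described here were 69 single cells from mouse testes at postnatal day 3 that the labels give the genotype Rhox10 Knockout. They were chosen by their column names in the deposited table and make up 69 of the 193 cells of the study. All 193 cells were sorted as Id4-eGFP positive, that is, for green fluorescence from a reporter of Id4, a gene of spermatogonial stem cells. The comparison cells were 71 Wildtype cells of postnatal day 3 and 53 Wildtype cells of postnatal day 7, under the same reporter. Sample titles divide the cells labelled knockout into set A with 21 cells, set B with 12 and set C with 36. The Wildtype cells of day 3 have a set A with 16 cells and a set B with 55, and those of day 7 have 12 and 41. What the letters stand for is not stated, and a letter shared by 2 groups is not taken as a link between them. The labels name neither an animal, nor the part of Rhox10 that was removed, nor a strain. The 69 cells therefore count as 1 sample, no test was made, and every value describes these cells. A reporter sort holds only cells in which the reporter was bright enough, so testis cells without it are outside the data.

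The first germ cells of the postnatal testis are prospermatogonia, which arrive from fetal life without dividing and then return to the cell cycle. Some become spermatogonial stem cells, which divide for life under the growth factor GDNF and its receptor made of Gfra1 and Ret, and others become progenitors or enter differentiation directly. Prospermatogonia also silence transposons with piRNAs, small RNAs bound by PIWI proteins, and lay down DNA methylation through Dnmt3l and Dnmt3a. Rhox10 is a homeobox transcription factor of the X-linked Rhox cluster. Sertoli cells surround the germ cells in the seminiferous cord and are their closest contaminant in a dissociated testis.

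A level below is the mean of log2(RPM + 1), where RPM, the usual depth-scaled unit, is the number of reads on a gene in proportion to the total reads of the cell. Levels carry no correction for transcript length, so a higher level of 1 gene than of another does not show more molecules. A gene is called on in a cell above 1 RPM. Recovered total reads per cell ran from 1118107 to 9753968 with a median of 4552352, and the reads on genes from 117385 to 1373776 with a median of 608841. Medians of 6851, 7360 and 6902.5 genes were on in sets A, B and C. Added ERCC control RNA had summed medians of 13429, 8120 and 8550 RPM in the same order.

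Set A stood apart from sets B and C, and 1 of its cells stood apart from the other 68. Cell 19 of set A had Ddx4 at 1.74 and Dazl at 3.46, the lowest of all 69 cells for both germ cell genes. In the other 20 cells of set A, Ddx4 ran from 4.46 to 8.71 and Dazl from 8.45 to 10.31. The same cell had the highest level of Clu, a secreted chaperone abundant in Sertoli cells, at 10.46, and Sox9, the transcription factor that directs Sertoli cell fate, at 7.36. Its mean over 17 Sertoli genes was 5.68, against 0.27 to 3.78 in the other cells of set A. Its mean over 17 germ cell genes was 0.88, against 2.88 to 5.45.

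Sertoli genes were also found beside germ cell genes in other cells. At least 2 of Clu, Wt1 and Sox9 were on in 9 of the 21 cells of set A (42.9%, exact 95% interval 21.8% to 66.0%), in 0 of 12 of set B and in 6 of 36 of set C (16.7%, 6.37% to 32.8%). All 3 were on in 7 cells, all of set A. In Wildtype cells of day 3, 14 of 71 had at least 2 of them on, and in those of day 7, 0 of 53. All 3 were on in 8 of the 71 Wildtype cells of day 3, with 3 of 16 in set A and 5 of 55 in set B. The set means of the 17-gene Sertoli score were 1.17, 0.39 and 0.33 in sets A, B and C. The list includes Ctsl, a cathepsin found in most cells: it was on in 100%, 91.7% and 80.6% of cells. Gata4, Gata1 and Fshr, which mark Sertoli cells, were on in no cell of sets B and C. The endothelial list had set means of 0.62, 0.42 and 0.27 in sets A, B and C, and the stromal list 0.59, 0.32 and 0.18. Leydig genes were at 0.23, 0 and 0.12, and 2 erythroid genes at 0.41, 0.08 and 0.07. Leukocyte genes were at 0.12, 0.08 and 0.14. Apart from the leukocyte list, set A was thus highest in these lists too. Across the 69 cells, with set means removed, germ cell and Sertoli scores had r = -0.54, and within set A r = -0.62 (n = 21). Without cell 19 both values became -0.00, so that this relation rested on a single cell. The part of Sertoli RNA, or of RNA of the other listed cell types, in the results on set A was not tested.

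**Figure D1:**
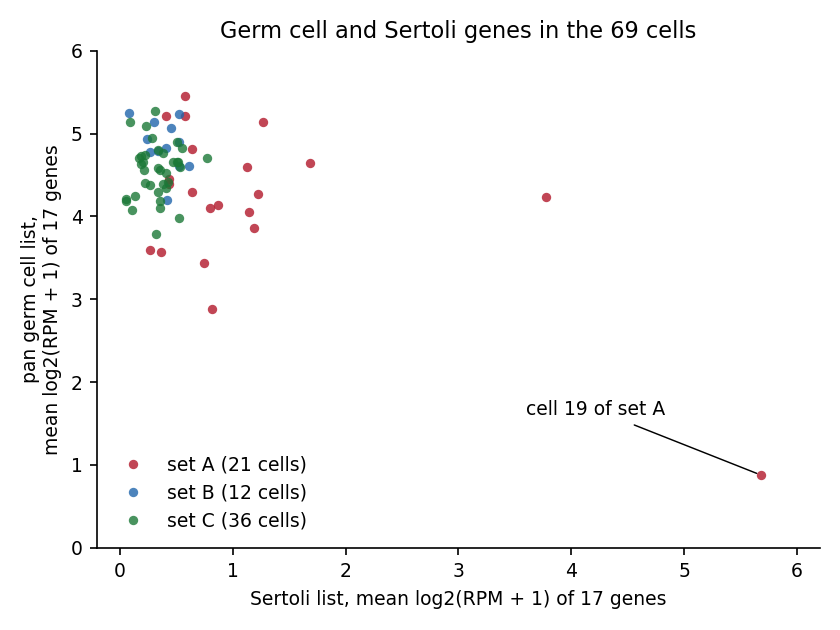
Each point is 1 of the 69 cells labelled knockout, with its mean log2(RPM + 1) over 17 Sertoli genes (x axis) and over 17 germ cell genes (y axis), coloured by lettered set. Cell 19 of set A, at 5.68 and 0.88, lies away from all other cells, and sets B and C reach at most 0.77 on the x axis.

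The labelled genotype was checked first. Rhox10 (ENSMUSG00000053909.8, chromosome X, 38066475 to 38071691 on mm10, plus strand) was on in 15 of 21 cells of set A (71.4%, exact 95% interval 47.8% to 88.7%), in 9 of 12 of set B (75%, 42.8% to 94.5%) and in 10 of 36 of set C (27.8%, 14.2% to 45.2%). Lowest, median and highest levels were 0, 2.69 and 5.04 for set A, 0, 3.41 and 4.06 for set B, and 0, 0.22 and 3.71 for set C. Wildtype cells of day 3 had it on in 63.4% of 71 cells (51.1% to 74.5%). Sets A and B were thus not below Wildtype in the share of cells with Rhox10 reads, and set C was. Reads on a remaining part of the gene would be listed in the same row, so these values do not decide the label, and the cells are called labelled knockout throughout.

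Ddx4 (ENSMUSG00000021758.14, chromosome 13, 112598333 to 112652475, minus strand), which encodes the germ cell RNA helicase VASA, was on in all 69 cells. Its lowest, median and highest levels were 1.74, 7.09 and 8.71 in set A, 7.61, 8.18 and 9.08 in set B, and 7.12, 8.26 and 9.15 in set C. Dazl (ENSMUSG00000010592.9, chromosome 17, 50279395 to 50293636, minus strand), an RNA-binding protein needed for germ cell development, was also on in all 69. Its levels were 3.46, 9.21 and 10.31 in set A, 8.82, 9.55 and 10.13 in set B, and 8.90, 9.89 and 10.83 in set C. The ranges of the 3 sets overlapped for both genes, and with cell 19 left out the mean of set A was 7.00 ± 1.13 for Ddx4 and 9.27 ± 0.52 for Dazl (SD between cells, n = 20). In sets B and C, Ddx4 was 8.21 ± 0.43 (n = 12) and 8.26 ± 0.47 (n = 36). By Ddx4 and Dazl the germ cell label thus matched the data in 68 cells, and cell 19 had low levels of both. Sertoli genes beside germ cell genes were not limited to cell 19, since 15 of the 69 cells had at least 2 of Clu, Wt1 and Sox9 on.

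Zbtb16 (ENSMUSG00000066687.5, chromosome 9, 48654297 to 48836222, minus strand) encodes PLZF, a repressor that keeps spermatogonia undifferentiated. It divided the sets: it was on in 5 of 21 cells of set A (23.8%, exact 95% interval 8.22% to 47.2%), 12 of 12 of set B and 36 of 36 of set C. Levels ran from 0 to 5.56 with a median of 0.25 in set A, from 2.19 to 6.37 with a median of 4.53 in set B, and from 1.21 to 6.28 with a median of 4.70 in set C. The pooled share of 76.8% therefore averaged unlike sets, and it was 100% without set A. Id4 itself (ENSMUSG00000021379.2, chromosome 13, 48261228 to 48266026, plus strand), an inhibitor of DNA binding and the source of the reporter, was on in 9 of 21, 11 of 12 and 27 of 36 cells of sets A, B and C. Cells sorted as green thus included 22 of 69 without Id4 above 1 RPM, and Id4 had no read in 52.4% of set A, 0% of set B and 8.33% of set C.

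Arrdc4 (ENSMUSG00000042659.15, chromosome 7, 68736995 to 68749241, minus strand), an alpha-arrestin that acts in the trafficking of membrane proteins, went the other way. It was on in 19 of 21 cells of set A (90.5%, exact 95% interval 69.6% to 98.8%), 10 of 12 of set B (83.3%, 51.6% to 97.9%) and 22 of 36 of set C (61.1%, 43.5% to 76.9%). Lowest, median and highest levels were 0, 4.18 and 6.84 in set A, 0.27, 2.71 and 4.74 in set B, and 0, 1.20 and 5.35 in set C. All 3 sets overlapped widely, and cells with no read at all made up 10.1% of the 69. Many on cells were close to the threshold, and at 5 RPM instead of 1 the share fell from 73.9% to 53.6%. The related Txnip, an inhibitor of glucose uptake and of thioredoxin, was on in 98.6% of the cells and did not follow Arrdc4 from cell to cell (r = 0.09, with 0.44, -0.10 and -0.10 in sets A, B and C). Exons of Txnip share 606 bases with a predicted gene on the opposite strand (r = 0.83 between them), so its values are uncertain.

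**Figure D2:**
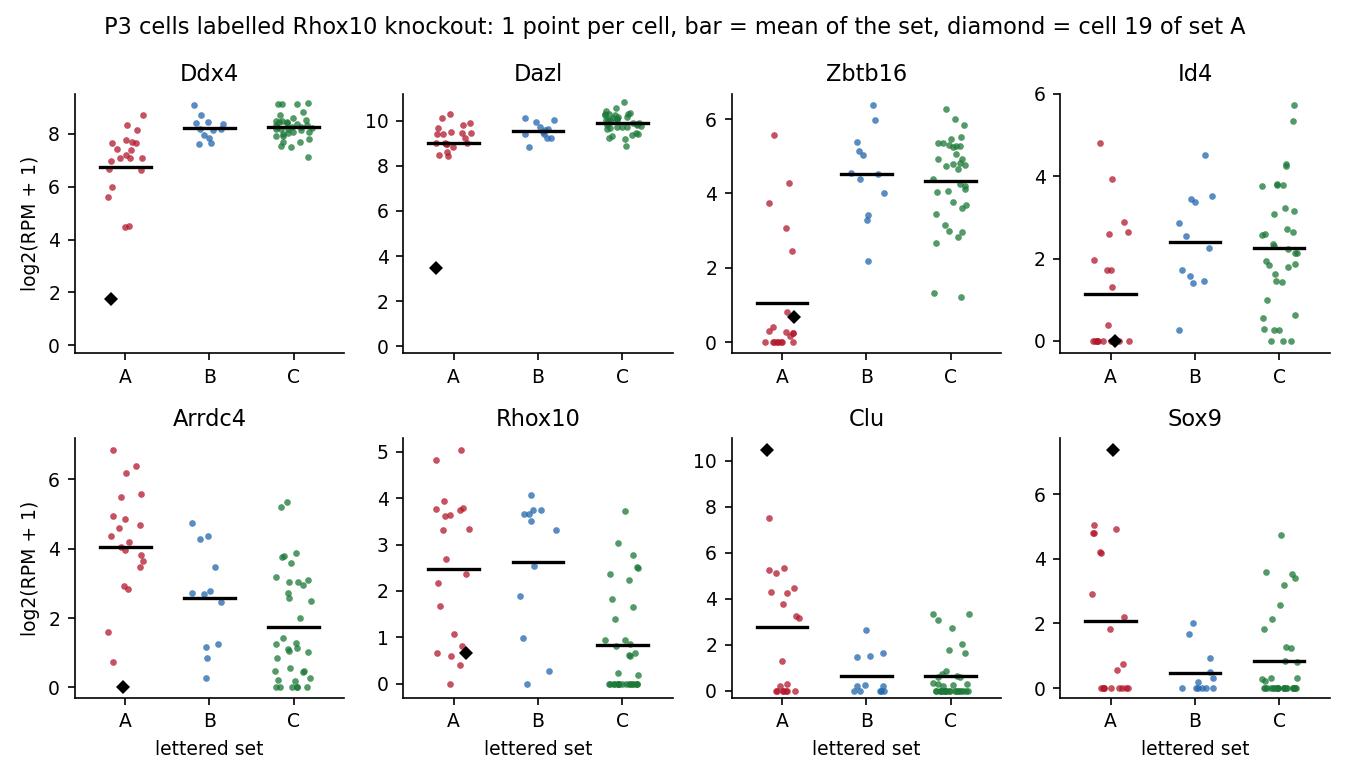
Level in log2(RPM + 1) (y axis) of 8 genes in each of the 69 cells by lettered set (x axis), with a bar at the mean of the set and a black diamond for cell 19 of set A. Ddx4 and Dazl are high in every other cell, Zbtb16 is near 0 in most cells of set A, Arrdc4 is highest in set A, and Clu and Sox9 peak in cell 19.

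High levels were shared by the sets more than they divided them. A level of at least 8 in each of the 3 sets was reached by 7 of 19557 genes (0.0358%). Among them were Dazl, Hsp90ab1, Ssr1, Sept2, Sub1 and Rpl4. Dazl came first in all 3 sets, at 8.99, 9.56 and 9.90. The chaperone gene Hsp90ab1 had rank 3 in each, at 8.67, 9.13 and 9.25. Of the others named, Ssr1 belongs to the translocon complex of the endoplasmic reticulum, Sept2 to the septin cytoskeleton, Sub1 is a transcriptional coactivator and Rpl4 a ribosomal protein, and their levels over the 3 sets lay between 8.42 and 8.63.

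The next genes in rank were Hnrnpa2b1, Ywhae, Actb, Cnbp, Matr3, Ncl and Sbno1, and Ddx4 held rank 15. Hnrnpa2b1, an RNA-binding protein, was at 7.40, 8.36 and 9.10 in sets A, B and C. Actb, cytoplasmic actin, had the same order of sets, at 7.23, 8.20 and 8.81. Jak1, the kinase of cytokine receptors, instead was highest in set B, where it had rank 5, at levels of 7.15, 8.68 and 6.82 in sets A, B and C. Of the 50 highest genes of each set, 32 were common to all 3 sets, and 40 of the 50 highest of the group were also among the 50 highest of Wildtype cells of day 3. These 50 genes took 9.08% of all reads on genes. Without set A, 14 genes passed level 8 in each remaining set. When values were scaled to 100000 reads on genes, 3 did. This scaling lowers values in cells with over 100000 RPM on genes and raises them in cells below it. RPM on genes ran from 68012 to 166433 in set A and was at least 104985 and 108544 in sets B and C.

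Most germ cell genes were on in nearly all cells. Of 19557 genes, 3046 (15.6%) were on in over 75% of the cells of each set, 2652 (13.6%) in 25 to 75% of each set, and 8585 (43.9%) in under 25% of each. On in all 69 cells were 776 genes, and 869 had no read in any. The pan germ cell list had 13 of 17 listed members on in over 75% of every set and none between 25 and 75%. Stk31, a Tudor-domain protein of the piRNA granules, was on in 69 of 69 cells, as was Mael, which acts in transposon silencing. The piRNA and DNA methylation list had 13 of 18 on in over 75% of every set, among them Dnmt3a (97.1% of cells), the PIWI cofactor Asz1 (100%) and Gtsf1 (98.6%). Its exceptions were Piwil4, the nuclear PIWI protein of fetal male germ cells, on in 47.6%, 75% and 55.6% of sets A, B and C, Pld6 in 52.4%, 33.3% and 58.3%, Exd1, Tdrkh and Dnmt3l.

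Meiotic genes were split. Of 15 listed genes of differentiation and early meiosis, 8 were on in over 75% of the cells of each set. Sycp3, a protein of the axes of meiotic chromosomes, was on in all 69 cells at levels of 6.64, 6.32 and 6.30. Its exons share 660 bases with Chpt1 on the opposite strand (r = 0.72 between them), so its level is uncertain. The cohesin Smc1b was on in 98.6%. Kit, the receptor that marks differentiating spermatogonia, was on in 52.4%, 50% and 61.1% of sets A, B and C, and Stra8, the gene that retinoic acid turns on before meiosis, in 61.9%, 91.7% and 63.9%. Prdm9, which places meiotic recombination, was on in 14.3%, 16.7% and 11.1%. Sohlh2, a transcription factor of early spermatogonia, was on in 80.95%, 100% and 97.2%, and the meiotic cohesin Rec8 in 61.9%, 41.7% and 22.2%.

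Genes that were clearly on in some cells and off in others within every set were sought as those on in 25 to 75% of the cells of each set with a median level of at least 5 in the on cells. No gene of 19557 met this rule, and 14 did at a median level of at least 4. The gene with the highest on level among the 2652 was Zfp943, a zinc finger gene. It was on in 33.3%, 25% and 38.9% of sets A, B and C, with a median of 24.3 RPM or 86 reads in its on cells, while 46.4% of all cells had no read. Sertad4 was on in 61.9%, 66.7% and 69.4%, with a median of 102.5 reads. Off cells of these genes were of 2 kinds, cells with no read and cells above 0 but not above 1 RPM, and for Zfp943 the latter were 18.8%.

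Bhlhe40, a repressor that acts in the clock and in stress responses, was on in 47.6%, 75% and 47.2% of sets A, B and C with a median of 48 reads in on cells. Hipk3, a kinase, was on in 66.7%, 58.3% and 50%, Trim23 in 71.4%, 75% and 52.8%, and Dennd1b in 71.4%, 50% and 58.3%. With each cell thinned to 100000 reads on genes, which kept all 69, Sertad4 was on in 61.9%, 58.3% and 69.4% and Hipk3 in 57.1%, 58.3% and 44.4%. Thinning lowered Bhlhe40 in set C from 47.2% to 36.1% and Ranbp6 in set B from 25% to 8.33%, so some shares depended on depth.

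Among the genes nearest to 50% in each set were Siae, Zfp119b, Neto2, Zbtb38, Lmbrd1, Dgat2, Trappc9 and Usp11. Their on cells had medians of 26 to 43.5 reads. Siae, a sialic acid esterase, was on in 52.4%, 50% and 47.2% of sets A, B and C, and in 62.5% and 63.6% of the Wildtype sets of day 3. Exons of Siae overlap those of Spa17 and Tbrg1 on the opposite strand (r = -0.03 and 0.05 with them). Dgat2, which makes triglycerides, was on in 47.6%, 50% and 47.2%, against 81.2% and 83.6% in the Wildtype sets of day 3. Trappc9, a subunit of a vesicle tethering complex, was on in 52.4%, 50% and 50%, against 50% and 20%. Both Wildtype sets of day 3 were thus above all 3 sets labelled knockout for Dgat2 and Siae. For Zbtb38, a zinc finger gene, both were below, at 43.8% and 41.8% against 47.2% to 52.4%. Genes were picked here for their shares in the cells labelled knockout, so the Wildtype shares describe and do not rank them.

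No gene was on in at least 75% of the cells of 1 or 2 sets and in at most 25% of the others with a median on level of 5, and 4 genes were at a level of 4. At any level there were 28 (0.143% of 19557). Of these, 16 were on in sets B and C and off in set A, 8 were on in set A alone, 2 in set B alone, 1 in set C alone and 1 in sets A and B. Of the 16 genes on in sets B and C, 3 were in the lists of G2 and mitosis or S phase (Ccnb1, Cdc6 and Hmmr), and of the 8 on in set A alone, 0. Each of these lists holds 22 of the 19557 genes. Ccnb1, cyclin B1, which drives entry into mitosis, was on in 23.8%, 91.7% and 100% of sets A, B and C. The share for Cdc6, which loads the replicative helicase, was 19.05%, 91.7% and 75%. Foxm1, the transcription factor of the G2 and mitosis programme, was at 14.3%, 83.3% and 97.2%. Nuf2, a kinetochore protein, and Hmmr, a spindle protein, were at 23.8%, 83.3% and 77.8% and at 19.05%, 75% and 75%. Zbtb16 had the highest on level of the 16, and Sez6, Tonsl, Nudt16l1 and Patz1 were the other named members. In Wildtype cells of day 3, Ccnb1 was on in 75% of set A and 100% of set B, and Cdc6 in 50% and 90.9%.

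The promoters of Ccnb1, Hmmr, Cdc6 and Nuf2 are shown because these 4 genes, which act in dividing cells, were on in at most 25% of set A and at least 75% of sets B and C. Each run holds 300 bases around the gene's RefSeq start, mostly before it, on GRCm38.p6, 5′ to 3′ on the gene's strand. Capitals mark CCAAT (or ATTGG on the other strand), the CHR letters TTTGAA or TTTAAA (or TTCAAA) and the E2F letters TTTCCCGC, TTTCGCGC, TTTGCCGC or TTTGGCGC on either strand. The Ccnb1 run is chr13:100786437-100786736 on the minus strand, that of Hmmr chr11:40733388-40733687 on the minus strand, that of Cdc6 chr11:98907901-98908200 on the plus strand and that of Nuf2 chr1:169531415-169531714 on the minus strand.
Ccnb1: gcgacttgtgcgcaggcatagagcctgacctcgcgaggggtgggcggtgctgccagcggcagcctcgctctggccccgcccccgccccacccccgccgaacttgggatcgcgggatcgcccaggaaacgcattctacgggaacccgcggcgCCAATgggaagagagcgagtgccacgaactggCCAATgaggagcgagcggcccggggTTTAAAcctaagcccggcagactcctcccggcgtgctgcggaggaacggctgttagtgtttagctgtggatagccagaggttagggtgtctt
Hmmr: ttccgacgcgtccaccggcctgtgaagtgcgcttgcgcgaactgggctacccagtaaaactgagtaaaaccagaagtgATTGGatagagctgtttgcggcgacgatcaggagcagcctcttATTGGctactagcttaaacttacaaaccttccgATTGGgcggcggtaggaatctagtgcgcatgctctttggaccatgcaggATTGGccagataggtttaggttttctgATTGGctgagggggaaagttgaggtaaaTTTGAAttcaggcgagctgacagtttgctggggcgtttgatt
Cdc6: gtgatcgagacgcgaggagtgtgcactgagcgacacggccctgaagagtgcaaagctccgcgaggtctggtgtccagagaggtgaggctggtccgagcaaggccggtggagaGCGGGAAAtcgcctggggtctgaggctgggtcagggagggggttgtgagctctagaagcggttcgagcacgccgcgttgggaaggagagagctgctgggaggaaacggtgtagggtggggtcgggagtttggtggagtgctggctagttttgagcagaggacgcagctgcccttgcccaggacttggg
Nuf2: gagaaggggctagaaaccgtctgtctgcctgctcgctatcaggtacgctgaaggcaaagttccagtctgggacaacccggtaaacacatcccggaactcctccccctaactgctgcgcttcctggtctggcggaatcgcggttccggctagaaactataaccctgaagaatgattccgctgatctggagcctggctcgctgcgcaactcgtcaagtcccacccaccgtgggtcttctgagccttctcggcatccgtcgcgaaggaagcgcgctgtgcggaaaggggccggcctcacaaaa
The Ccnb1 run held CCAAT 2 times and a CHR match 1 time, the Hmmr run 5 and 1, the Cdc6 run neither of them but 1 E2F match, and the Nuf2 run none of the 3 motifs. In the GENCODE annotation Cdc6 starts at 98907801, before its run, and bases before that start were not scanned. Of 32851 promoters of the same length, 37.4% held CCAAT, 27.6% a CHR match and 2.26% an E2F match on either strand. Of the 10 named genes on in sets B and C, 6 had a promoter in the table, and 3 of the 6 held CCAAT, 2 a CHR match and 1 an E2F match. Of the 8 genes on in set A alone, 4 had a promoter there, and 3 of the 4 held CCAAT.

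Set A had its own genes. Dnmt3l, the cofactor of DNA methylation in prospermatogonia, was on in 76.2%, 8.33% and 19.4% of sets A, B and C, and in 71.4%, 8.33% and 8.33% after thinning. Its exons overlap those of Aire on the opposite strand (r = 0.25 between them). Nrk, an X-linked kinase, was on in 80.95%, 25% and 11.1%, before and after thinning. The share for Mmp2, a secreted protease of matrix, was 76.2%, 16.7% and 11.1%. Gatm, Adrbk2, Rps6ka5 and Ly6k were others. In the Wildtype sets of day 3, Dnmt3l was on in 43.8% and 29.1% and Nrk in 43.8% and 23.6%. The 9 cells of set A with at least 2 Sertoli markers on are in these shares, and their part was not tested for single genes. With all 15 such cells left out of the 69, 60 genes met the rule at any level.

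**Figure D3:**
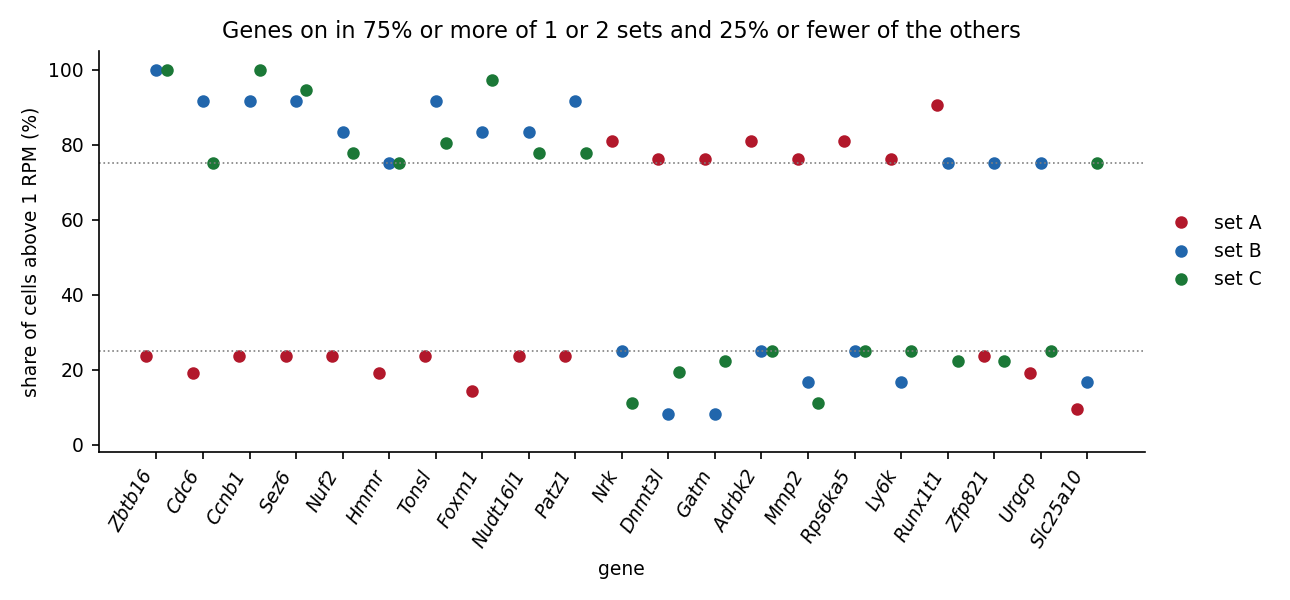
Share of cells above 1 RPM in percent (y axis) in sets A, B and C for 21 named genes that passed the rule (x axis), with dotted lines at the limits of 25% and 75%. Set A lies at or below 25% for the 10 genes on the left, and sets B and C do for the 7 genes from Nrk to Ly6k.

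The same contrast ran through the graded levels. A median of 6.58% of a gene's variance over the 69 cells lay between the sets, and 66 of 5069 genes with a level of at least 2 had over 50% there. In 65 of the 66, set A had the lowest mean, and 12 of the 66 were in the lists of G2 and mitosis or S phase. Of all 5069 genes, 19 were in the list of G2 and mitosis and 21 in that of S phase. The share of the 5069 with their lowest mean in set A is not given here. The highest share, 81.9%, was that of Tuba3b, a tubulin of germ cells, at 2.71, 6.23 and 7.36 in sets A, B and C. Its copy Tuba3a, whose reads the counting may not separate from it, was at 4.02, 6.86 and 7.25. Top2a, which untangles chromosomes, was at 2.73, 6.28 and 7.10, Mcm2, a helicase subunit, at 3.40, 6.71 and 6.97, and Cenpf at 1.98, 5.44 and 6.69. Prdx1, a peroxide scavenger, was at 5.85, 6.80 and 7.56. The Wildtype sets of day 3 had Top2a at 5.62 and 6.56 and Mcm2 at 5.54 and 6.27, above set A and below set C in each case.

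Set A was also lowest in the cell cycle lists, for 22 of 22 genes of G2 and mitosis and 21 of 22 of S phase. Other lists leaned the same way, with 18 of 20 oxidative phosphorylation, 13 of 20 ribosomal protein and 13 of 18 immediate early and stress genes. For alpha-arrestins and glucose sensing the count was 4 of 13, and for Sertoli genes 0 of 17. The share of all genes lowest in set A is not given here. The mean level over 22 genes of G2 and mitosis was 1.599 ± 0.53, 3.80 ± 0.92 and 4.30 ± 0.90 in sets A, B and C (SD between cells, n = 21, 12 and 36), and single cells ran from 0.59 to 2.50, 1.59 to 5.06 and 2.48 to 6.09. The highest cell of set A was therefore level with the lowest of set C. The mean over 22 S phase genes was 2.62 ± 0.84, 4.73 ± 0.64 and 4.67 ± 0.50. In Wildtype sets A and B, G2 and mitosis genes were at 3.13 and 3.83 on day 3 and 2.49 and 4.95 on day 7. S phase genes were there at 3.56 and 4.21 on day 3 and 3.49 and 4.54 on day 7. The Wildtype sets thus also differed from each other at both ages, and all were above set A of the cells labelled knockout. Rrm2, a subunit of the enzyme that makes deoxynucleotides, was on in 28.6%, 100% and 94.4% of sets A, B and C, and Mki67 in 52.4%, 91.7% and 100%. Of 18 listed stem cell genes, 13, 1 and 3 had their lowest mean in sets A, B and C and 1 had no read, beside 13 of 17 pan germ cell genes lowest in set A. Gfra1 was at 1.98, 4.95 and 4.402 and on in 42.9%, 100% and 100%, Ret at 1.92, 5.44 and 4.92, and Etv5, a target of GDNF signalling, at 2.42, 4.48 and 4.55. Lhx1, another such target, was on in 0%, 50% and 66.7%. Tspan8, a tetraspanin used to enrich stem cells, was on in 61.9%, 58.3% and 36.1%, Nanos2, a translational repressor, in 4.76%, 25% and 2.78%, and Epha2 in 23.8%, 25% and 13.9%. T, the Brachyury gene, was on in 28.6%, 0% and 16.7%, and Pdx1 had no read in any cell.

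Gene pairs that varied together were called where the Pearson r over the 69 cells, with set means removed, was at least 0.6 and the r within each set was at least 0.4. Among 12844846 pairs of 5069 genes, 170 were called (0.00132%), and they held 274 genes. The median r of all pairs was 0.0395. The points of each r are single cells, those of a set share its letter, and the labels name no animal, so no p-value is given for any r.

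The 15 strongest pairs of named genes, ordered by their lowest r in a set, all overlapped on the genome. Exons of both genes overlapped in 61 of the 170 pairs, always on opposite strands. Of 291 tested pairs with exons overlapping on opposite strands, 61 were called (20.96%), against 0 of 13 on the same strand and 4 of 879 pairs within 10 kb. Myef2, an RNA-binding repressor, and Slc24a5, an ion exchanger of pigment cells, had r = 0.97, with 0.99, 0.94 and 0.95 in sets A, B and C. Their longest overlap was 714 bases, chr2:125087964-125088677. Cdca7l and Dnahc11, an axonemal dynein, had r = 0.96 and overlapped by 642 bases, chr12:117877982-117878623. Degs2 and Evl (0.93), Ppib and Snx22 (0.95), Apex1 and Tmem55b (0.93) and Map3k12 and Pcbp2 (0.86) were of the same kind. Slc24a5 and Dnahc11 had levels of 4.91 and 3.26. SMARTer cDNA and Nextera XT libraries do not mark the strand and the strand setting of the counting is not given in the sources used here, so reads from such partners cannot be told apart and the values of these genes are uncertain. The median r of the 61 pairs was 0.81, and 0.77 and 0.76 in Wildtype cells of day 3 and day 7. Of them, 60 had r of at least 0.4 in Wildtype cells of day 3, where 1.13% of all pairs did, and 60 in those of day 7, where 0.651% did.

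The other called pairs were 104 with genes over 10 kb apart or on other chromosomes (0.000821% of such pairs), 4 within 10 kb and 1 with no matched position. The genes in most pairs were Eef1a1, Rpl13a and Rpl4, followed by Rad9 and Rpl8 with 5 each. Of the 5 pairs of Rad9, 4 were apart, and the other was with Ppp1ca (r = 0.87). The exons of Rad9 and Ppp1ca share 225 bases on opposite strands, so the values of Rad9 are uncertain. None of the pairs of Eef1a1, Rpl13a and Rpl4 was among the 12 apart pairs still called on values scaled to the reads on genes. Eef1a1, the elongation factor that brings tRNAs to the ribosome, was in 7 pairs, with Rpl13a and Rplp0 among its partners. Rpl13a and Rpl4 were in 6 each, and had r = 0.69 with each other (0.72, 0.77 and 0.62 in sets A, B and C, and 0.68 in Wildtype cells of day 3). Eef1a1 and Rplp0 had 0.63, and 0.51 in Wildtype. Ribosomal protein genes have many pseudogene copies, and how reads with several alignments were counted is not given. The highest r of an apart pair, 0.93, joined Acot9 and Acot10, a mitochondrial thioesterase and its near-identical copy, whose reads may not be separable.

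Among the other apart pairs, chosen after their values were seen, were some of cell cycle genes. Lig1, the DNA ligase of replication, and Mcm3, a helicase subunit, had r = 0.63 (0.64, 0.70 and 0.65 in sets A, B and C, and 0.55 in Wildtype cells of day 3). Top2a and Tpx2, which builds the spindle, had 0.62 (0.54, 0.86 and 0.69, and 0.67 in Wildtype). Mcm7 and the histone chaperone Nasp had 0.61, and 0.37 in Wildtype. Haus4 and Ndc80, both of the spindle and kinetochore, had 0.62 in the cells labelled knockout and 0.11 in Wildtype. Of these 4 pairs, only Top2a with Tpx2 was still called on the scaled values. Of the 104 apart pairs, 48 had r of at least 0.4 in Wildtype cells of day 3 and 25 in those of day 7, beside backgrounds of 1.13% and 0.651% of all pairs. Whether a pair differed between genotypes was not tested.

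Apart pairs depended on the scale more than overlapping ones. Scaled to the reads on genes of each cell, the 104 pairs had a median r of 0.56 against 0.62 in RPM, and 12 were still called. The median r of the 61 overlapping pairs was 0.81 on both scales, with 49 still called. After thinning to 100000 reads on genes, 1 apart and 38 overlapping pairs were. Without cell 19 of set A, 79 of the 104 and 59 of the 61 were. The 1 apart pair still called after thinning was Dazl with Rpl39l, and without cell 19 it was not called (r = 0.36). None of the 104 apart pairs was thus called both after thinning and without cell 19. Apart pairs called on the scaled values as well as without that cell included Acot9 with Acot10, Top2a with Tpx2, Hsp90ab1 with Uba1, which starts the ubiquitin cascade (0.65), Fam76a with Rabepk (0.62) and Bcl2l1, an inhibitor of apoptosis, with Cdk7 (0.62). Of these, the Top2a and Hsp90ab1 pairs had 0.67 and 0.40 in Wildtype cells of day 3, and the Fam76a and Bcl2l1 pairs 0.11 and 0.07. Falling relations were few: 2 pairs reached -0.6 or lower, Irak1 with Spa17 (-0.63) and Chka with Hmox2 (-0.62), and in Wildtype cells of day 3 they had -0.10 and 0.11.

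**Figure D4:**
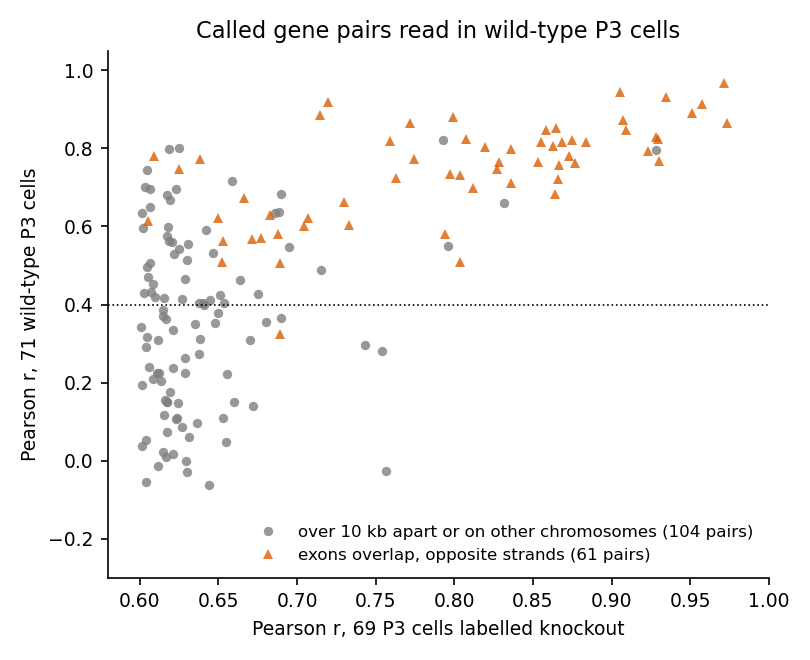
Pearson r of called gene pairs in the 69 cells labelled knockout (x axis) and in 71 Wildtype cells of day 3 (y axis), with triangles for pairs whose exons overlap and circles for pairs over 10 kb apart, and a dotted line at 0.4. All but 1 of 61 triangles lie above the line, and 48 of 104 circles do. The x axis starts near the value that chose the pairs.

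Gene lists were then read for how far their members moved together inside a set. Over all 5069 genes the mean pairwise r was 0.0400, with 0.0569, 0.0293 and 0.0268 in sets A, B and C. The 15 ribosomal protein genes that passed the filter had a mean r of 0.37, with 0.42, 0.43 and 0.29 in the sets and 0.54 in Wildtype cells of day 3. Scaled to the reads on genes it was 0.26. Genes of G2 and mitosis had 0.23 over 19 genes, with 0.09, 0.32 and 0.29 in sets A, B and C, so set A was lowest. The mean level of the list was 1.599, 3.80 and 4.30 in these sets, and the part of low levels in the r of set A was not tested. S phase genes had 0.19, with 0.19, 0.34 and 0.17. With set means kept, which adds the differences between sets, the 2 lists had 0.50 and 0.41.

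For the stem cell list set A was highest. Its 7 genes that passed the filter had a mean r of 0.28, with 0.45, 0.21 and 0.06 in sets A, B and C, and set A had 0.48 without cell 19. Zbtb16 and Gfra1 had r = 0.80, 0.51 and 0.07 in sets A, B and C. Cells 1, 4, 5, 8 and 9 of set A, with Gfra1 between 4.37 and 5.999, were also its 5 cells with Zbtb16 above 1 RPM, at 2.45 to 5.56. Cell 2 had Gfra1 at 4.79 and no Zbtb16 read, and the other 15 cells had Gfra1 at or below 3.03. In set A the 2 genes therefore marked a minority of cells that carried both, while nearly all cells of sets B and C carried them. Smoc2, a matricellular protein, followed Zbtb16 in the same manner (0.84, 0.20 and 0.29). Cell 4 of set A also had 3 Sertoli markers on, with Clu at 7.51.

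In the germ cell list, 1 cell carried much of the relation. The 15 genes that passed had a mean r of 0.23, with 0.36 in set A and 0.03 in each of sets B and C. Without cell 19, set A had 0.19 and the 69 cells less that cell 0.11. Genes of differentiation and early meiosis had 0.17, and 0.04 without it. Ddx4 and Dazl had r = 0.65, and 0.21 without cell 19, with 0.78 in the 12 cells of set B and 0.20 in set C. The 13 listed genes of alpha-arrestins and glucose sensing, with 8 that passed, had a mean r of 0.00764, below that of all pairs. Lists of oxidative phosphorylation (0.14, with all 20 genes on in over 75% of every set) and glycolysis (0.12) lay between. In Wildtype cells of day 3 the oxidative phosphorylation list had 0.37.

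**Figure D5:**
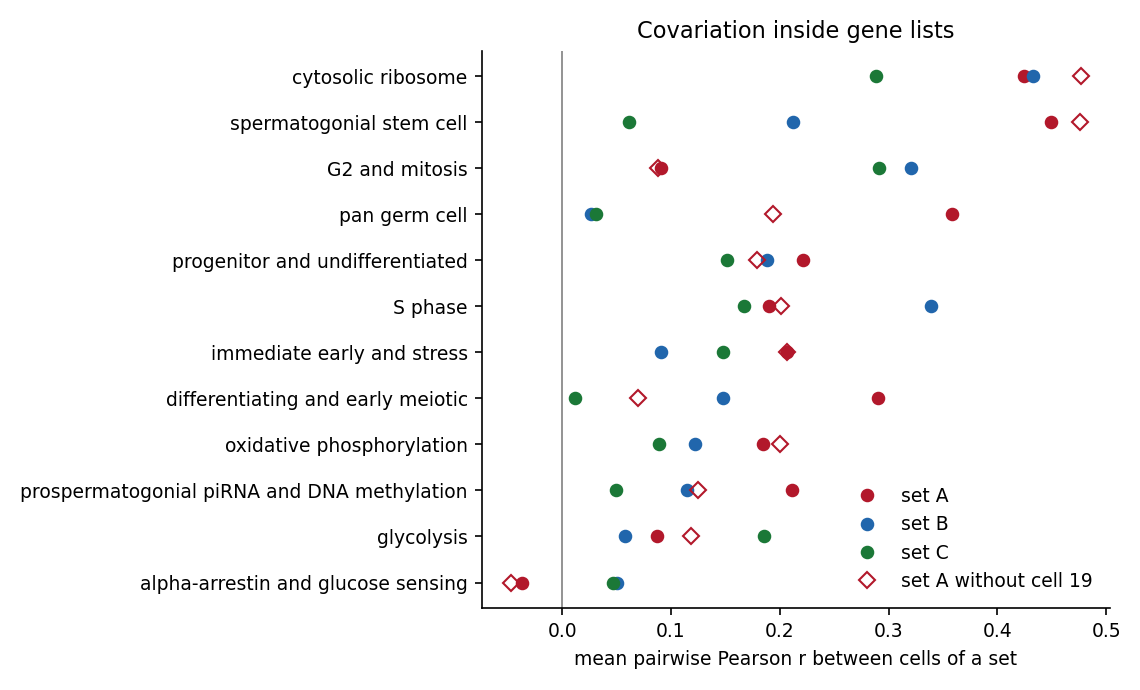
Mean pairwise Pearson r between cells (x axis) of the genes of each list that passed the filter (y axis, lists ordered by the value over the 69 cells), for sets A, B and C, with open diamonds for set A without cell 19. Set A leads for the stem cell list at 0.45 and is last for G2 and mitosis at 0.09, and its germ cell value drops from 0.36 to 0.19 without cell 19.

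The marker genes had few close partners. For Dazl the highest were Mael (r = 0.76), Rpl39l, a ribosomal protein variant of germ cells (0.74), Bbip1 (0.69) and Polr2j (0.69), and without cell 19 they fell to 0.46, 0.36, 0.53 and 0.32. Its lowest was Cd81, a tetraspanin (-0.53, and -0.38 without cell 19). For Ddx4 the highest were Fkbp6, a co-chaperone of the piRNA pathway (0.65, and 0.53 without cell 19), Dazl, and Mael (0.64, and 0.34 without cell 19). Fkbp6 was at 0.72, 0.20 and 0.62 in sets A, B and C. Rhox10 was closest to Fyn, a kinase of the Src family (0.49, with 0.64, 0.82 and 0.02), and Arrdc4 to Sumo3 (0.43, with 0.49, 0.31 and 0.43, and 0.46 in Wildtype cells of day 3). Arrdc4 and Rhox10 had 0.36 with each other, at 0.39, 0.09 and 0.44. Id4 was closest to Coq9, of coenzyme Q synthesis (0.53), to the actin-capping gene Capg (0.50) and to Tcl1, a coactivator of AKT (0.47). These 3 were at 0.05, 0.10 and 0.08 in Wildtype cells of day 3. Each partner was picked as the highest or lowest of at least 4791 compared genes, which by itself makes its r extreme.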

How the data were processed

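Per the labels' protocols, reporter-positive cells went through Fluidigm C1 capture, ERCC addition, SMARTer amplification and Nextera XT library preparation. Tools listed by the submitters' processing notes are HTSeq 0.6.1 and STAR 2.3.0, with mm10 as build. How strand and multiply aligned reads were handled is not given in the sources used here. In the authors' deposited table the values are named TPM, but they were whole multiples of 1 step per cell, that is RPM: at a tolerance of 0.001 RPM, at least 99.9% of values in each cell of the 69 were whole reads. All listed entries, ERCC and Rn45s included, held between 8.13% and 21.7% of a cell's total reads. No count test was run, since the labels name no animal and the group is 1 sample.

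The 84 ERCC entries and Rn45s were left out, leaving 19557 genes, of which 19202 were given a position from GENCODE vM21. Levels are log2(RPM + 1), a group's level weights its sets equally, and genes entered covariation at a level of at least 2 and on in at least 20% of the cells of each set. Intervals are exact (Clopper-Pearson, 95%) and cover counting error only. No doublet caller was run. No 2 of the 69 cells had identical columns. The code was tested on simulated data. Python 3.11.15, numpy 2.4.6, pandas 2.3.3 and scipy 1.17.1 were used.

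Named genes were the 5 markers and Id4, the 25 highest genes, the 12 on/off genes with the highest on level and the 12 nearest to 50% on, up to 10 set-divided genes per pattern, the 15 strongest pairs, the 10 most connected genes, 4 partners at each end per marker and list members where their list is described. On/off and set-divided genes were taken at any level, since none passed the planned level. Apart pairs, the genes with most variance between sets and the pairs of lowest r were named after their values were seen. The cells, gene lists and rules were chosen with earlier results of these data known. Alternatives left out each set, cell 19 of set A or cells with Sertoli markers, and changed the scaling, depth, threshold, pseudocount, filter and correlation. A few genes that met these rules are not reported here.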

Additional observations from a re-analysis of the deposited data

Results flagged for a closer look

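Some entries outside the gene comparisons had a set median above both Wildtype sets of day 3. The summed ERCC control RNA had a median of 13429.5 RPM in set A of the cells labelled knockout. Wildtype sets A and B had 11968.9 and 7464.5 RPM on day 3, and 12703.2 and 8032.7 RPM on day 7. Sets B and C of the cells labelled knockout, at 8120 and 8550 RPM, were below both Wildtype sets A. In each group the set titled A thus had the highest ERCC median. Rn45s, the precursor of ribosomal RNA, had medians of 7568.07, 8251.62 and 8427.57 RPM in sets A, B and C, against 7385.29 and 6709.07 RPM in the Wildtype sets of day 3.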

How the results depend on the processing

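Leaving out a set changed what set A or set C alone carried. Without set A, Zbtb16 was on in 100% of the cells, 14 genes had a level of at least 8, 595 pairs were called with 518 apart, the germ cell list had a mean r of 0.0272 and Ddx4 with Sbno1 reversed to r = -0.0242. Without set B there were 1 on/off gene, 48 set-divided genes of any level, and 527 pairs with 445 apart. Without set C, Zbtb16, Arrdc4 and Rhox10 were on in 51.5%, 87.9% and 72.7% of cells, 4 genes were on/off, 65 were set-divided at any level, and 8593 pairs were called with 8429 apart. These settings hold fewer cells and 1 fewer set in which r must pass. Without the cells with 2 or 3 Sertoli markers on, 60 genes were set-divided at any level and 534 pairs were called with 466 apart. Scaled to reads on genes, 3 genes passed level 8, and 67 pairs were called with 13 apart, with a ribosomal mean r of 0.26. Thinning gave 3, 45, 5 and 0.19. With on above 5 RPM, Arrdc4 and Rhox10 were on in 53.6% and 30.4%, 3 genes were on/off and 5 set-divided. A median on level of 4 gave 14 and 4. With Spearman's rho 60 apart pairs were called, at a level of at least 4 there were 81 pairs with 64 apart, and with set means kept 489 with 413 apart and mean r of 0.50 for G2 and mitosis and 0.41 for S phase. Where no construction is named, the cause was not tested. No paired analysis was possible because no test was made and replicate numbers name single cells. Without cell 19 of set A no count moved by over 1.5 times. Depth limits genes with few reads, and a gene off in a cell may be below its detection.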

Other observations

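Among other members of the Rhox cluster, Rhox13 was on in 82.6% and Rhox5 in 56.5% of the 69 cells. By set A, B and C, Rhox5 was on in 52.4%, 83.3% and 50%, Rhox6 in 52.4%, 16.7% and 11.1%, and Rhox9 in 52.4%, 33.3% and 8.33%, so that Rhox6 and Rhox9 were most frequent in set A. Rhox11 and Rhox12 were on in 2.90% and 1.45%. Some cluster members are near copies of each other, and their values are uncertain.

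Immediate early genes, which respond to stimulation and handling within minutes, ranged from nearly absent to high. Of 18 listed genes of this kind and of stress, 7 were on in over 75% of the cells of each set and 6 in 25 to 75%. Members at low levels included Jun at 1.74, Junb at 1.01 and the heat shock gene Hspa1a at 0.14. Egr1 was at 4.93, 6.38 and 6.199 in sets A, B and C. Fos was on in 92.8% of the cells with an SD within sets of 1.91, and Btg2, which slows proliferation, in 84.1% with an SD of 1.99. The list had a mean pairwise r of 0.17, against 0.22 in Wildtype cells of day 3.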
